A study of Mus musculus with 9 samples.

Results

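NONCODE is a catalogue of noncoding transcripts assembled from many sources. The RNAs described here are its spliced entries without an Ensembl name: rows with a NONMMUT identifier whose span on the chromosome, from first to last base, is longer than the transcript itself, listed in all 9 libraries with a mean of 5 or more counts per library. Of 69547 listed transcripts, 4828 met this rule. They were drawn from 17912 spliced unnamed NONCODE transcripts at any count, and the unspliced unnamed ones at the same count minimum numbered 24265. NONMMUT002878.2 and NONMMUT003139.2, with 45 counts in all, lay just inside the minimum, and NONMMUT001754.2 and NONMMUT004129.2, with 44 counts, lay just outside.

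The study sequenced total RNA from spinal cord tissue of wild type C57BL/6 mice aged 7 to 9 weeks, sampled on day 7. The 3 groups had 3 libraries each: injured cord of mice given HBO, which is hyperbaric oxygen, oxygen breathed above atmospheric pressure (HBO), injured cord without it (injury), and cord without injury (control). The sample labels call the control animals uninjured and the series text calls them sham, so whether they had surgery is not settled, and the sources used here give neither the injury model nor the oxygen schedule. The sources do not say whether each library came from its own animal. The p-values therefore speak only of how far these libraries differ, a part of which may be technical.

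Long noncoding RNAs are transcribed, capped, spliced and often polyadenylated like messenger RNAs but are not translated into long proteins. Some act in the nucleus on transcription or splicing, some are hosts from which microRNAs or small nucleolar RNAs are cut, and many have no known role. Neural tissue is known for expressing many of them, with strong differences between cell types. A spliced transcript inside or across a coding gene can be an RNA of its own, a noncoding form of the host gene, or a piece of its precursor, and counts without strand do not separate these.

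The members ranged in transcript length between 202 and 21972 bases with a median of 1871 bases. Their spans ranged between 304 and 1353851 bases with a median of 5108.5 bases. The span was 2.43 times the length in the median, under 2 times for 2152 members, 2 to 10 times for 1642 and over 10 times for 1034. For 414 members (8.57%) the span exceeded the length by fewer than 30 bases, which is shorter than introns usually are, so the word spliced holds for them only by the rule. NONMMUT000151.2 had the longest span and joined chromosome 1, 10362297 to 11716147, across Prex2, a guanine nucleotide exchange factor gene, Cpa6, a carboxypeptidase gene, and A830018L16Rik, into a transcript of 1740 bases. The longest transcript, NONMMUT025335.2 with 21972 bases, lay within Rbfox1, the gene of a neuronal splicing regulator, on chromosome 16, 6265392 to 6290045.

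**Figure D1:**
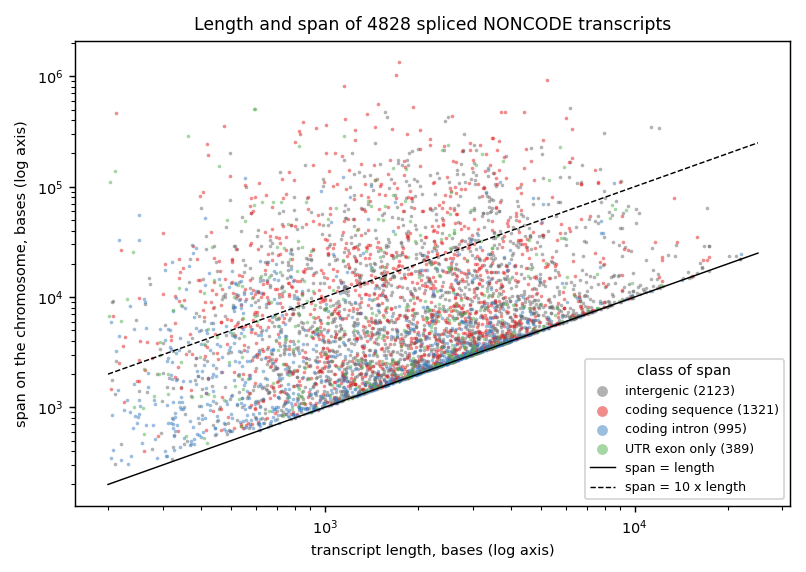
Each point is 1 of 4828 members, with transcript length on the x axis and span on the chromosome on the y axis, both in bases on log axes, coloured by what the span touches in GENCODE M21. Points hug the solid line of equal span and length at the bottom, and 1034 lie above the dashed line of 10 times the length.

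Set against GENCODE M21 on GRCm38, without regard to strand, 2123 members (44%) touched no coding gene, 1321 (27.4%) reached coding sequence, 995 (20.6%) lay wholly inside coding introns and 389 (8.06%) met a coding gene in an untranslated exon but no coding sequence. Only 237 (4.91%) had the span and length of a GENCODE transcript, 122 of these of protein-coding genes. One end of 634 members lay within 50 bases of a RefSeq transcription start, 465 of them starts of long noncoding genes. The members lay at 3513 places, a place being a run of overlapping listed spans. At their place 1533 were the only listed transcript, and 3295 overlapped other listed transcripts.

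The sequences below show what such RNAs look like where the reference holds them; the deposited tables hold no exon positions. The 3 noncoding transcripts with a single intron and an exact GENCODE match that were called against control are shown across their exon junction, in lower case for the last bases of the first exon and in capitals for the first bases of the second. NONMMUT012902.2 has the span and length of Gm16045, which is antisense to the septin gene Sept9, NONMMUT020040.2 those of Gm26772 in the Zmiz1 gene, and NONMMUT037300.2 those of Gm26603 in the Fmnl2 gene. The sequences are GENCODE M21 transcripts on GRCm38.
Gm16045 junction: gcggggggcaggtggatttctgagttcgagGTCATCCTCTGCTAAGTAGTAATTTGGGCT
Gm26772 junction: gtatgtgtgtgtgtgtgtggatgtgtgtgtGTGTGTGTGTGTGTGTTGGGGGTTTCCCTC
Gm26603 junction: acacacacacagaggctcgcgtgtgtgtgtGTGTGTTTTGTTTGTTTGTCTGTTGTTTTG
The introns removed spanned 2820 bases for Gm16045 (chr11:117258355-117261174), 2551 bases for Gm26772 (chr14:25550239-25552789) and 933 bases for Gm26603 (chr2:52859864-52860796), all on the minus strand. The Gm26772 and Gm26603 junctions fall inside a run of gt repeats, whereas that of Gm16045 does not.

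For 3 members that begin at the RefSeq start of a noncoding gene, the bases around the start are given (RefSeq, GRCm38.p6). Those before the start are in lower case and those from the start on in capitals. The members at Lockd and Bach2os were called against control. The member at 9630013A20Rik, NONMMUT021833.2, was not (injury against control, adjusted p = 0.074, edgeR). 9630013A20Rik (chr14:84476375-84476674, minus strand) is the start of the member with the smallest p in HBO against injury, Lockd (chr6:134928842-134929141, plus strand) is a noncoding RNA downstream of the cell-cycle inhibitor gene Cdkn1b, and Bach2os (chr4:32571613-32571912, minus strand) lies opposite the lymphocyte transcription factor gene Bach2.
9630013A20Rik start: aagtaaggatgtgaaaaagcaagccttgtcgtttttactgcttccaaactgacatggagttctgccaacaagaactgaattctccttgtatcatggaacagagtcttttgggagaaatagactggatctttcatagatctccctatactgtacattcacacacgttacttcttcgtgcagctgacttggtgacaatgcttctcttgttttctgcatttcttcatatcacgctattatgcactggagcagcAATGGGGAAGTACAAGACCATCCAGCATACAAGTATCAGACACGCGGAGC
Lockd start: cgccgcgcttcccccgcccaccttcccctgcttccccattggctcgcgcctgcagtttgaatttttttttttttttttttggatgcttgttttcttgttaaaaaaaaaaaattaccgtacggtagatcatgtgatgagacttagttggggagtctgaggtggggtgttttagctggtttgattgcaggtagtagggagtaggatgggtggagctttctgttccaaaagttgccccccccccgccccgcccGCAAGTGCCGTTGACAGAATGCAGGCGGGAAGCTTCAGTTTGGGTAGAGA
Bach2os start: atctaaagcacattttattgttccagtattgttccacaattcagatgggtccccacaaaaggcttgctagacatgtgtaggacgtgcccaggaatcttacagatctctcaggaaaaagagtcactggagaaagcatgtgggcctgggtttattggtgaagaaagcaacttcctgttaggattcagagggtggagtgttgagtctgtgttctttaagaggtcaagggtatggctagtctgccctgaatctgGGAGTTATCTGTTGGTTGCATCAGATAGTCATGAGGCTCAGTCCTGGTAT
On either strand, none of the 3 windows of 300 bases held TATAAA (13.6% of 32851 RefSeq promoter windows did), CACGTG (7.15%) or TGANTCA (7.81%). The counts of CG pairs were 6 for 9630013A20Rik, 13 for Lockd and 1 for Bach2os, against a median of 7 over all windows. For RefSeq genes with a start at a member called in injury against control, 1 window per gene was searched. It need not be the start at the member. TATAAA was held by 3 of 11 for higher members and by 0 of 4 for lower ones.

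Hairpins of the microRNA set used here lay within the spans of 102 members. NONMMUT043797.2 on chromosome 3, 88215416 to 88229959, spans Mir9-1, a source of miR-9, a microRNA of neural progenitors and neurons, and was among the 5 members with the most counts. NONMMUT026095.2, across the growth factor gene Fgf12 on chromosome 16, spans Mir690 and was the only 1 of the 102 called in injury against control. NONMMUT032603.2, outside this set, overlaps the GENCODE genes Mir143 and Mir145a. It rose in injury against control (log2 change 1.24, SE 0.31, adjusted p = 0.0489, edgeR). The mature RNAs of Mir9-1 and Mir690 are printed from RefSeq with the seed, bases 2 to 8, in capitals.
mmu-miR-9-5p: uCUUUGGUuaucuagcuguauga
mmu-miR-9-3p: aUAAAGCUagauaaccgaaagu
mmu-miR-690: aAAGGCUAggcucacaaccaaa
The 3 seeds differ from each other. NONMMUT043797.2 had 640, 532 and 263 CPM in HBO cord, 852, 594 and 831 CPM in injured cord and 816, 675 and 845 CPM in control cord, where CPM is a count scaled to library size, over the listed noncoding counts and with TMM factors. Its HBO replicate 3 was the lowest of the 9 libraries, and no comparison passed the test (HBO against control, log2 change -0.70, SE 0.30, adjusted p = 0.177 by edgeR's quasi-likelihood test). NONMMUT026095.2 had 21.2, 37.4 and 24.4 CPM in injured cord, against 59.0, 49.6 and 64.0 CPM in control cord, and fell (log2 change -1.06, SE 0.25, adjusted p = 0.0432, edgeR).

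The libraries held between 2295433 and 3148744 counts over all listed transcripts, of which the members took between 189805 and 228972. Their share of listed counts was 7.71%, 7.38% and 8.45% in HBO cord, 6.84%, 7.00% and 7.76% in injured cord, and 8.10%, 8.34% and 7.98% in control cord. All injury values lay below all control values, and the HBO values overlapped both. The share averaged 7.20% ± 0.494 in injury and 8.14% ± 0.183 in control (SD, n = 3), a difference of -0.941 percentage points with an exact two-sided permutation p = 0.1, the smallest that 3 against 3 libraries allow. For HBO against injury the difference was 0.646 points (exact permutation p = 0.3), and for HBO against control it was -0.295 points (exact permutation p = 0.5).

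Per length, 2 of the 3 members with the highest level in control cord lay at Malat1, the abundant nuclear RNA of most cell types. NONMMUT033609.2, which begins at the RefSeq start of Malat1 on chromosome 19, 5796056 to 5802661, reached 162 ± 18.0 FPKM in control, and NONMMUT033610.2 reached 113 ± 24.2 FPKM (SD, n = 3). Between them stood NONMMUT096375.1, an intergenic transcript of 817 bases on chromosome 15 at 128 ± 22.1 FPKM in control (SD, n = 3). The pair at Malat1 held between 9.27% and 15.5% of all member counts of a library. NONMMUT033609.2 had 5940, 6840 and 6690 CPM in HBO cord, 6600, 3720 and 7650 CPM in injured cord and 4560, 5280 and 5330 CPM in control cord. NONMMUT033610.2 had 5520, 5500 and 4150 CPM in HBO cord, 5960, 5380 and 2500 CPM in injured cord and 2920, 3610 and 4680 CPM in control cord. Injury replicate 2 was low in the first transcript and injury replicate 3 in the second, and neither transcript passed the test in any comparison. Most members were rare: over all members the median of the mean FPKM was 0.718.

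Of the 4828 members, 3637 passed edgeR's filter on low counts and were tested, and 1191 did not pass it. The mean count of those not tested had a median of 6.22 and reached 330.3, since the filter asks for counts in several libraries. In injury against control, 164 of the 3637 were called at an adjusted p under 0.05, which is 4.51%, against 6.06% of all 26602 features tested. Higher in injury were 118 members (3.63% of all features were called higher), and lower were 46 (2.43% of all features). The members' share was thus not above the background, and among unspliced unnamed NONCODE transcripts 6.15% of 20284 were called. The median log2 change was 0.04 over the tested members and 0.01 over all features. At 2-fold or more, 92 of the called members were higher and 26 lower. The 164 lay at 159 places, and no place held calls in both directions.

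The number of calls depended on single libraries, for the members and for all features alike. In injury against control, 6 members (39 of 28287 features) were called without control replicate 1, 4 (34 of 28227) without control replicate 2 and 62 (467 of 28383) without control replicate 3. Without injury replicate 1 there were 12 (110 of 28608), without injury replicate 2 there were 23 (209 of 28563), and without injury replicate 3 there were 79 (680 of 28518). Without HBO replicates 1, 2 and 3 in turn there were 110 (1042 of 28628), 183 (1814 of 28632) and 110 (1119 of 28481). Of the 53 results named by rule that passed the test in any comparison, 3 still passed without control replicate 1 and 4 without control replicate 2. Scaled to the library totals behind the FPKM values, the split was 81 higher and 106 lower, and 7.58% of all features were called. The median log2 change of all features was then -0.21, against 0.01 with TMM. With other settings the members called, and the share of all features called, were 387 and 14.7% by DESeq2, 32 and 0.46% with no filter on low counts, and 724 and 11.7% with overlapping transcripts summed, where 314 were higher and 410 lower. In the summed setting each member takes the result of its place, so a place with several members counts several times. The 11.7% is over 20897 places, each counted once. Of the 90 called members that overlap other listed transcripts, the sum at the place was called in the same direction for 70.

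**Figure D2:**
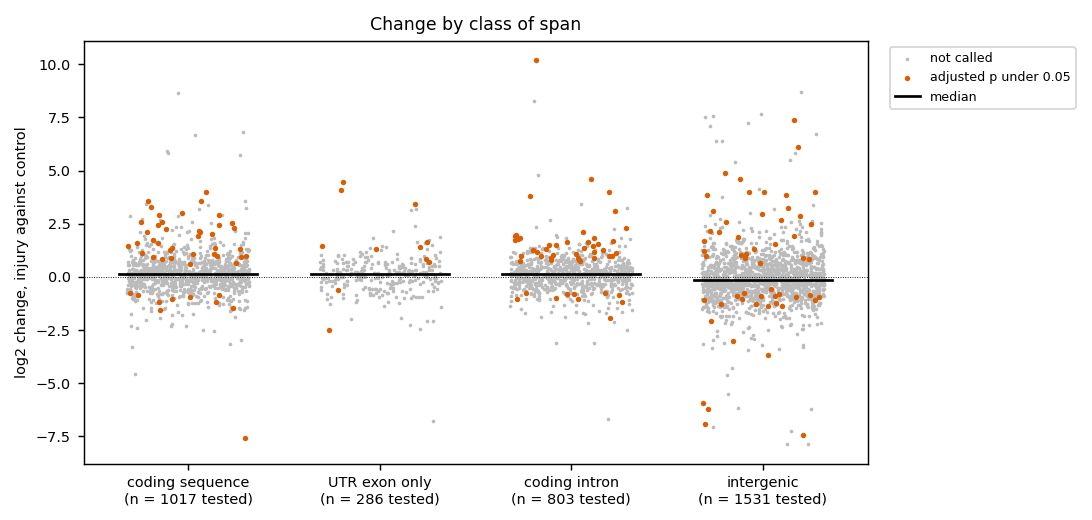
Log2 change in injury against control for the 3637 tested members, by what the span touches; each point is 1 member, orange points passed the test and the black bar is the class median. The intergenic median lies at -0.12 and the other 3 medians between 0.14 and 0.16.

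By class, 40 members inside coding introns rose and 10 fell of 803 tested (6.23% called), 38 rose and 10 fell of 1017 that reached coding sequence (4.72%), 9 rose and 2 fell of 286 with only untranslated exons (3.85%), and 31 rose and 24 fell of 1531 intergenic members (3.59%). Over all features 6.06% were called, so the intron share was near that background and the others were below it. The median log2 change was 0.14 inside introns, 0.16 over coding sequence, 0.16 over untranslated exons and -0.12 between genes. With the library totals behind the FPKM values the medians of the 3 coding classes turned to between -0.08 and -0.06 and the intergenic one to -0.35. Members that were the only listed transcript at their place were called in 6.24% of 1185 tested cases (58 higher, 16 lower), and members that overlapped others in 3.67% of 2452 (60 higher, 30 lower). The share of sole transcripts was likewise near the 6.06% of all features.

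The member with the smallest p was NONMMUT068776.2 on chromosome 9, 43045840 to 43050998, inside an intron of Arhgef12. It had 53.2, 50.6 and 47.7 CPM in HBO cord, 56.9, 49.7 and 57.9 CPM in injured cord, and no count in any control library. All 6 injured libraries thus lay within a narrow band and far from the 3 control libraries. With a floor of 3 counts over the control group, it was at least 145-fold higher in injury (adjusted p = 5.56e-05) and at least 133-fold higher in HBO (adjusted p = 7.29e-05, both edgeR). Its span exceeds its length of 5139 bases by under 30 bases. The 1 transcript that overlaps it, NONMMUT068775.2, was present in every library, at 32.6, 24.3 and 25.5 CPM in HBO, 31.5, 29.3 and 25.1 CPM in injury and 20.1, 14.7 and 26.9 CPM in control. Summed with it, the log2 change was 1.96 in injury (adjusted p = 0.0048) and 1.87 in HBO against control (adjusted p = 0.00856, edgeR).

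**Figure D3:**
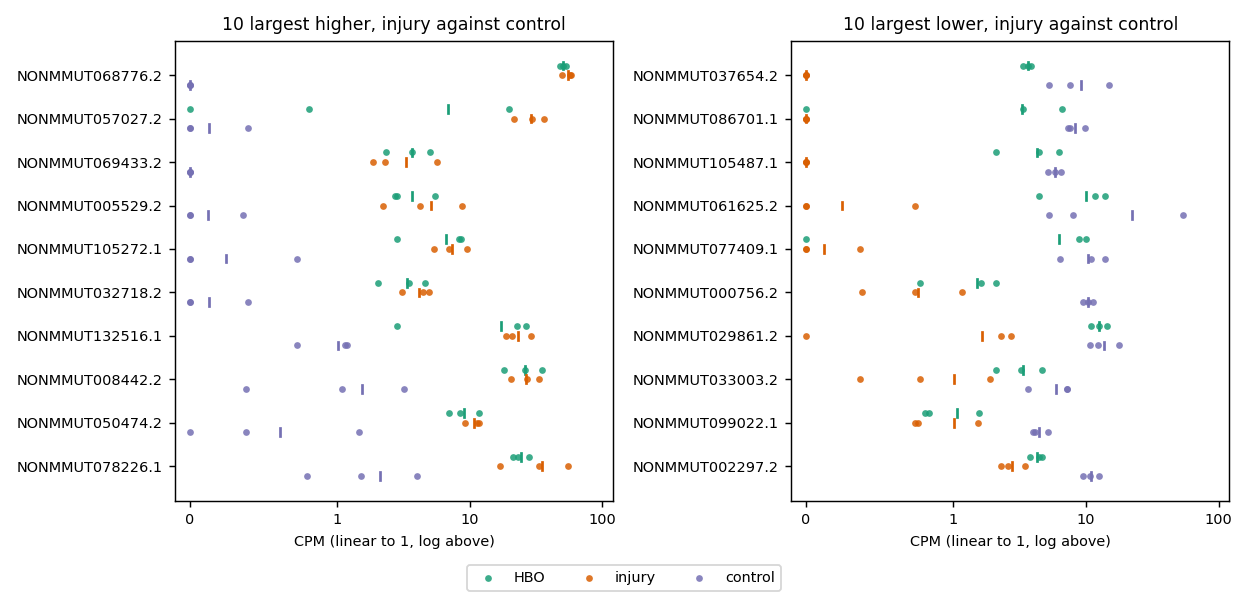
CPM per library (x axis, linear up to 1 and logarithmic above) of the 10 largest higher and 10 largest lower called members in injury against control, with HBO, injury and control libraries as coloured points and group means as bars. NONMMUT068776.2 has 0 CPM in all control libraries, and NONMMUT037654.2, NONMMUT086701.1 and NONMMUT105487.1 have 0 CPM in all injury libraries.

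Several other large increases were of members near or at 0 in control. NONMMUT069433.2, in an intergenic stretch of chromosome 9, 61057064 to 61059149, had 2.33, 5.02 and 3.64 CPM in HBO, 5.69, 2.31 and 1.85 CPM in injury and none in control, so that it was at least 8.65-fold higher in injury (adjusted p = 0.0346, edgeR). NONMMUT005529.2, a sole transcript between genes on chromosome 10, 47452985 to 47455800, had 8.72, 4.24 and 2.21 CPM in injury, against 0, 0 and 0.363 CPM in control (log2 change 4.87, SE 0.96, adjusted p = 0.0302, edgeR). NONMMUT105272.1, a sole transcript on chromosome 19, 22052931 to 22054328, had 9.48, 5.39 and 7.01 CPM in injury, against 0, 0 and 0.727 CPM in control (log2 change 4.61, SE 0.84, adjusted p = 0.0265, edgeR). Separate injury and control libraries were a condition for naming these members. Summed over the 12 listed transcripts at its place, the log2 change of NONMMUT069433.2 was 1.28 (adjusted p = 0.0958). NONMMUT032718.2 in Ccbe1, a gene of lymphatic vessel growth, had a log2 change of 4.58 (SE 0.84, adjusted p = 0.0264), and NONMMUT050474.2 near Vps13d one of 4.01 (SE 0.62, adjusted p = 0.0197, edgeR), with a summed log2 change of 0.79 over 10 listed transcripts (adjusted p = 0.0506).

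NONMMUT057027.2, next to the carboxypeptidase gene Cpvl on chromosome 6, 53855578 to 53870328, had 19.8, 0 and 0.809 CPM in HBO, 21.6, 29.3 and 36.5 CPM in injury and 0, 0.397 and 0 CPM in control. The 3 injury libraries stood together, and of the HBO libraries replicate 1 came nearest to them, below their range. The change passed the test in injury against control (log2 change 7.38, SE 1.67, adjusted p = 0.04) and did not in HBO against injury (-2.06, SE 1.01, adjusted p = 1, edgeR). Over the 9 listed transcripts at its place the log2 change was 1.05 in injury against control (adjusted p = 0.0162).

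Another pair of members, which met only untranslated exons of coding genes, rose strongly, and the sums at their places did not pass the test. NONMMUT008442.2 at Urgcp, chromosome 11, 5761772 to 5781875, had 33.0, 20.4 and 26.9 CPM in injury, against 0.379, 3.18 and 1.09 CPM in control (log2 change 4.09, SE 0.53, adjusted p = 0.0151, edgeR). The 11 listed transcripts at its place together had 66.0, 52.4 and 58.3 CPM in injury, against 22, 24.2 and 45.8 CPM in control (log2 change 0.89, adjusted p = 0.0651). NONMMUT132516.1 at Nxpe4, chromosome 9, 48162012 to 48251862, had 29.2, 20.8 and 18.8 CPM in injury, against 1.14, 1.19 and 0.727 CPM in control (log2 change 4.44, SE 0.78, adjusted p = 0.0249), and its 9 listed transcripts had a summed log2 change of 0.65 (adjusted p = 0.142, edgeR).

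**Figure D4:**
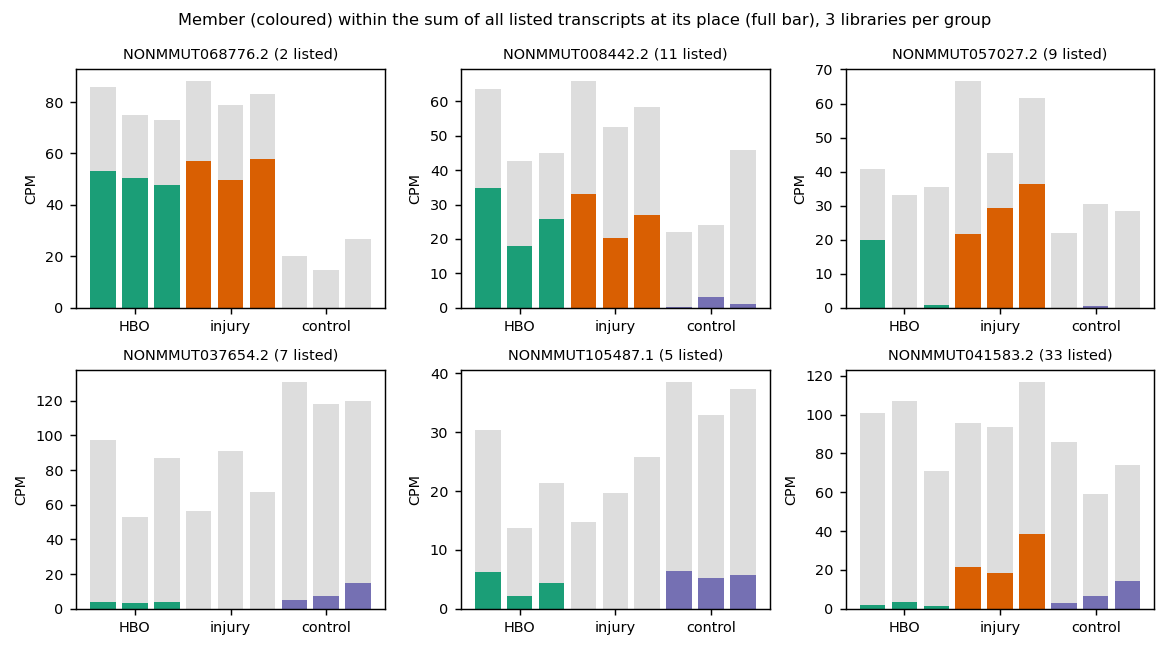
Coloured bars give the CPM of 6 members in each of 9 libraries, and the full bars, grey included, the sum of all listed transcripts that overlap at the same place. NONMMUT037654.2 and NONMMUT105487.1 are at 0 in injury while their places stay between 56.1 and 90.9 CPM and between 14.8 and 25.8 CPM there.

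Members at genes of scar and immune cells were few. Of 6 tested members at genes of fibroblasts and collagen scar, 2 rose and none fell (median log2 change 1.72), against 3.63% of all features called higher. Only 4 of the 30 genes on the list had a member. The members not called had log2 changes of 3.37 at Col5a1 and of -0.12, 0.55 and 1.81 at Adamts9. NONMMUT078226.1, in an intron of the collagen VI gene Col6a3 on chromosome 1, 90816591 to 90820592, had 54.6, 33.5 and 17.0 CPM in injury, against 1.51, 0.794 and 4.0 CPM in control (log2 change 4.01, SE 0.56, adjusted p = 0.0156, edgeR). NONMMUT071267.2, in an intron of the transforming growth factor beta receptor gene Tgfbr2 on chromosome 9, 116143768 to 116147440, had 56.1, 40.1 and 36.5 CPM in injury, against 11, 13.1 and 18.5 CPM in control (log2 change 1.63, SE 0.30, adjusted p = 0.026, edgeR). Both were the only listed transcript at their place, and their injury and control libraries did not overlap. The summed level of the 6 members ran between 81.9 and 151 CPM in injury and between 33.8 and 44.4 CPM in control.

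At macrophage and microglia genes, 1 of 2 tested members rose, against 3.63% of all features called higher. NONMMUT065343.2, over the macrophage scavenger receptor gene Msr1 on chromosome 8, 39630324 to 39642651, had 10.5, 19.2 and 15.8 CPM in HBO, 51.2, 18.1 and 21.8 CPM in injury and 2.27, 3.18 and 2.18 CPM in control. It rose in injury against control (log2 change 3.56, SE 0.48, adjusted p = 0.0151) and in HBO against control (2.56, SE 0.48, adjusted p = 0.0331, edgeR). NONMMUT071378.2 at the fractalkine receptor gene Cx3cr1 did not pass (log2 change 1.08, adjusted p = 0.349). Of 3 tested members at genes of innate immunity, 1 rose and none fell, against the same 3.63% of all features. This was NONMMUT024756.2 over Irak4, a kinase below Toll-like receptors, with 22, 13.9 and 19.6 CPM in injury, against 1.14, 2.38 and 6.54 CPM in control (log2 change 2.43, SE 0.50, adjusted p = 0.0323, edgeR). Not called were NONMMUT029428.2 over H2-D1 (log2 change 3.55, adjusted p = 0.309) and NONMMUT107890.1 over Il1b (-0.22, adjusted p = 0.767, edgeR). In whole tissue, more cells of a type and more RNA per cell cannot be told apart, and the part of cell numbers in these changes was not tested.

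Further called members overlapped genes that immune cells use, and these were picked after their values were seen. In injury against control the log2 change was 1.42 for NONMMUT045977.2 at the Src-family kinase gene Lyn, 1.72 for NONMMUT009256.2 in Dock2, an exchange factor gene of leukocytes, 1.47 for NONMMUT075928.1 at the lipid phosphatase gene Inpp5d and 3.0 for NONMMUT033924.2 at Ms4a4a. The RNA-binding protein gene Zfp36, which limits cytokine messages, held NONMMUT060449.2 with a log2 change of 2.13. Each of these 5 was also higher in HBO against control, at log2 changes of 1.56, 1.79, 1.35, 2.90 and 2.09. At the transcription factor gene Foxp1, 3 members rose in injury against control, NONMMUT124183.1 by 0.98, NONMMUT058172.2 by 1.16 and NONMMUT058190.2 by 1.33 on the log2 scale. Where a span holds host exons, the counts cannot be told apart from those of the host's own messages.

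Of 12 tested members at known noncoding RNAs of blood and scar cells, 2 rose in injury against control (3.63% of all features were called higher), both overlapping transcripts at Lockd, whose start is printed above. NONMMUT059193.2, on chromosome 6, 134929100 to 134952898, had 4.66, 7.95 and 2.83 CPM in HBO, 1.52, 9.63 and 7.38 CPM in injury and 0, 0.794 and 0.363 CPM in control. NONMMUT059194.2 had 7.76, 13.4 and 13.3 CPM in HBO, 11.4, 12.3 and 7.38 CPM in injury and 0.757, 2.78 and 0.727 CPM in control. Both rose in injury against control, with log2 changes of 3.86 (SE 0.94, adjusted p = 0.0472) and 2.84 (SE 0.51, adjusted p = 0.026), and their place summed over 9 listed transcripts changed by 3.14 (adjusted p = 0.00591, edgeR). NONMMUT059194.2 also rose in HBO against control (2.99, SE 0.51, adjusted p = 0.0283). Of the members at Pvt1, a noncoding RNA beside the Myc gene, none was called, and NONMMUT023686.2 among them had the highest log2 change (2.63, adjusted p = 0.106). The Pvt1 member with the smallest p, NONMMUT023685.2, had the lowest log2 change (-1.27, adjusted p = 0.0859, edgeR).

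Called members at other RefSeq noncoding starts were likewise looked up after their values were seen. NONMMUT116504.1 at Bach2os had 10.9, 20.9 and 13.7 CPM in HBO, 18.2, 7.32 and 9.96 CPM in injury and 0.757, 1.59 and 3.63 CPM in control, and rose in both (injury against control, log2 change 2.53, SE 0.56, adjusted p = 0.0384; HBO against control, 2.88, SE 0.56, adjusted p = 0.0339, edgeR). NONMMUT056930.2 at Halr1, a noncoding RNA beside the Hoxa cluster, had 7.58, 4.62 and 3.32 CPM in injury, against 1.14, 0 and 0.363 CPM in control (log2 change 3.24, SE 0.77, adjusted p = 0.044). NONMMUT036358.2 at the small nucleolar RNA host Snhg7 rose by 1.03 (adjusted p = 0.0393). NONMMUT110054.1 at Gm14204, a start 42 bases from Slc32a1, the vesicular transporter gene of inhibitory neurons, fell by 0.78 on the log2 scale (adjusted p = 0.0462), and NONMMUT073599.2 at 5330434G04Rik fell by 0.95 (adjusted p = 0.0226).

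The NONCODE transcripts whose junctions are printed above were higher than control in one or both injured groups. NONMMUT012902.2 had 6.21, 6.69 and 8.49 CPM in HBO, 6.07, 6.17 and 5.54 CPM in injury and 0, 0 and 1.09 CPM in control, with log2 changes against control of 4.08 (adjusted p = 0.0321) in HBO and 3.81 (adjusted p = 0.0293) in injury. The tables also list an Ensembl transcript named Gm16045 with the same span and length, and this row had 1.55, 1.25 and 0 CPM in HBO, 1.14, 1.16 and 1.48 CPM in injury and 1.14, 0 and 1.09 CPM in control, so its groups overlapped. NONMMUT020040.2 had 70.5, 114 and 59.4 CPM in injury, against 18.5, 19.9 and 32 CPM in control (log2 change 1.79, SE 0.33, adjusted p = 0.0271, edgeR). The Ensembl row named Gm26772, again of the same span and length, had 1.9, 1.54 and 1.11 CPM in injury, against 1.51, 1.59 and 1.09 CPM in control. Summed over the 3 listed transcripts at each place, the log2 change in injury against control was 2.05 (adjusted p = 0.0153) at NONMMUT012902.2 and 1.33 (adjusted p = 0.0127) at NONMMUT020040.2. How counts were divided between rows of one span and length is not known here. NONMMUT037300.2, the sole listed transcript at its place, had 165, 187 and 172 CPM in HBO, against 104, 106 and 96.0 CPM in control, and rose there (log2 change 0.78, SE 0.16, adjusted p = 0.0374), while its change in injury against control stayed just outside the threshold (0.64, adjusted p = 0.0502). Among the 237 members with an exact GENCODE match, 193 were tested, and 8 rose and 1 fell in injury against control. The share called was 4.66%, against 4.51% of all tested members and 6.06% of all features. The fallen one was NONMMUT016426.2 at the ubiquitin ligase gene Hecw1 (log2 change -0.96, adjusted p = 0.0473).

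Members at neural genes leaned lower in injury, mostly without passing the test. Of 21 tested members at genes of neurons and synapses, 1 fell and none rose, with a median log2 change of -0.59, against 2.43% of all features called lower and a median of 0.01. The log2 changes ran between -2.25 and 0.21. Only 10 of the 30 genes on the list had a member, and several of the 21 lay in Rbfox1, at a place with 26 listed transcripts. The summed level of all members of the list ran between 536 and 711 CPM in injury and between 932 and 1001 CPM in control. The called one, NONMMUT025325.2, ran through Rbfox1 on chromosome 16, 5885668 to 6814135, and had 102, 85.7 and 131 CPM in HBO, 91.0, 113 and 113 CPM in injury and 175, 175 and 191 CPM in control. Its log2 change was -0.77 in injury against control (SE 0.18, adjusted p = 0.045) and -0.76 in HBO against control (SE 0.18, adjusted p = 0.0526, edgeR). Other members in Rbfox1, such as NONMMUT025335.2 (-0.59, adjusted p = 0.109) and NONMMUT025353.2 (-0.68, adjusted p = 0.0889), did not pass.

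Of 11 tested members at receptor and ion channel genes, 1 fell in injury against control (2.43% of all features were called lower), and the median log2 change was -0.38. This was NONMMUT037654.2, a transcript of 1347 bases that begins at the RefSeq start of Gm13629 and runs across the pain-related sodium channel gene Scn9a on chromosome 2, 66440880 to 66547472. It had 3.88, 3.35 and 3.64 CPM in HBO, no count in any injury library and 5.30, 7.54 and 14.9 CPM in control. It was at least 24.5-fold lower in injury than in control (adjusted p = 0.0158, edgeR), by the floor of 3 counts over the injury group. The 7 listed transcripts at its place together had 56.1, 90.9 and 67.5 CPM in injury, against 131, 118 and 120 CPM in control (log2 change -0.83, adjusted p = 0.0561). In HBO against control a different member of the list fell, NONMMUT009866.2 in the glutamate receptor gene Gria1 (log2 change -1.0, adjusted p = 0.0305). Called members in the neuronal genes Nrg1, Lsamp, Kcnd2 and Asic2, picked after their values were seen, had log2 changes between -1.02 and -0.81 in injury against control. How all called members at neuronal genes divide was not counted. NONMMUT053007.2 over Rufy3, for example, was called higher (log2 change 3.57, SE 0.58, adjusted p = 0.0214, edgeR).

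Among 82 tested members at known neural noncoding RNAs, 6 fell and none rose in injury against control, and 6 fell and none rose in HBO against control (1.39% of all features were called lower there). All 6 in injury lay in the span of Snhg14, a long host of small nucleolar RNAs that is expressed from the paternal chromosome and runs through Ube3a. The 44 members in that span together had 866, 615 and 813 CPM in HBO, 574, 880 and 836 CPM in injury and 1488, 1419 and 1367 CPM in control, with no overlap between control and the injured groups. Of the 38 tested, the median log2 change was -0.74 in injury and -0.74 in HBO against control. NONMMUT061432.2, chromosome 7, 59320612 to 59344442, had 30, 48.2 and 44.3 CPM in injury, against 103, 96.9 and 119 CPM in control (log2 change -1.38, SE 0.25, adjusted p = 0.0258, edgeR). NONMMUT126902.1, chromosome 7, 59407450 to 59409843, had 11.8, 13.9 and 17.3 CPM in injury, against 36.3, 36.5 and 31.3 CPM in control (log2 change -1.27, SE 0.26, adjusted p = 0.0319). NONMMUT061625.2 was at 0, 0 and 0.738 CPM in injury, against 5.30, 54.0 and 8.0 CPM in control, so that control replicate 2 sets its mean (log2 change -6.22, SE 1.33, adjusted p = 0.0353).

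NONMMUT053851.2 at Miat, a nuclear RNA of neurons, had 1080, 720 and 712 CPM in HBO, 824, 988 and 1200 CPM in injury and 1920, 1420 and 1580 CPM in control. All control libraries were above all others. It fell in HBO against control (log2 change -0.97, SE 0.22, adjusted p = 0.0441), and its change in injury against control was -0.71 (SE 0.22, adjusted p = 0.0801, edgeR). NONMMUT015711.2 at Meg3, a maternally expressed RNA, fell in HBO against control by 0.92 on the log2 scale (adjusted p = 0.0388).

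No member at genes of astrocytes (5 tested), oligodendrocytes and myelin (4 tested) or the cell cycle (1 tested) was called in injury against control. The unadjusted p was under 0.05 for NONMMUT116864.1 at Nfib (log2 change -3.30, adjusted p = 0.0503), for NONMMUT048228.2 at Nfia (0.72, adjusted p = 0.0865) and for NONMMUT096648.1 at the glutamate transporter gene Slc1a3 (0.91, adjusted p = 0.131), all on the astrocyte list. The cell death list had no member. NONMMUT028279.2, in an intron of the mitochondrial superoxide dismutase gene Sod2 on chromosome 17, 13022438 to 13025452, fell in injury against control (26.5, 32.4 and 31.0 CPM, against 58.3, 47.2 and 48.7 CPM in control; log2 change -0.78, SE 0.19, adjusted p = 0.0495) and in HBO against control (28.3, 22.2 and 34.8 CPM in HBO; -0.85, SE 0.20, adjusted p = 0.0455, edgeR). The 7 listed transcripts at its place had a summed log2 change of -0.51 in injury against control (adjusted p = 0.144).

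Outside the lists, the largest decreases in injury against control were of members at 0 in injury. NONMMUT086701.1, chromosome 12, 28999708 to 29001246, had 6.60, 3.35 and 0 CPM in HBO, none in injury and 9.84, 7.54 and 7.27 CPM in control, at least 21.8-fold lower in injury than in control (adjusted p = 0.0457, edgeR). NONMMUT105487.1, chromosome 19, 38355054 to 38362516, had 6.21, 2.09 and 4.45 CPM in HBO, none in injury and 6.43, 5.16 and 5.82 CPM in control, at least 15.4-fold lower (adjusted p = 0.0197). NONMMUT000756.2, near the neural transcription factor gene Pou3f3 on chromosome 1, 42714443 to 42746437, had 0.776, 2.09 and 1.62 CPM in HBO, 0.379, 1.16 and 0.738 CPM in injury and 9.46, 10.3 and 11.3 CPM in control. It fell in both, by 3.69 on the log2 scale in injury (SE 0.47, adjusted p = 0.0151) and by 2.76 in HBO (SE 0.44, adjusted p = 0.0247, edgeR). The 52 listed transcripts at its place had a summed log2 change of -0.47 in injury against control (adjusted p = 0.0766), and the 5 at the place of NONMMUT105487.1 had one of -0.91 (adjusted p = 0.0653). NONMMUT002297.2, the sole transcript at its place in an intron of the contactin-associated gene Cntnap5a, had 2.27, 3.47 and 2.58 CPM in injury, against 12.5, 10.7 and 9.45 CPM in control (log2 change -1.95, SE 0.30, adjusted p = 0.0195). NONMMUT029861.2 was at 2.27, 2.70 and 0 CPM in injury, against 17.8, 10.7 and 12.4 CPM in control (log2 change -3.01, SE 0.63, adjusted p = 0.0335), while the 12 listed transcripts at its place summed to a log2 change of 0.07 (adjusted p = 0.754). Among the 10 largest decreases were also NONMMUT077409.1, NONMMUT033003.2 and NONMMUT099022.1, with log2 changes of -5.91, -2.51 and -2.08. The sums at their places had adjusted p of 0.102, 0.167 and 0.0286.

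In HBO against injury, which asks what the oxygen treatment changed in injured cord, no member was called by edgeR's quasi-likelihood test, against 4 of 26602 features (0.015%). At an unadjusted p under 0.05 there were 162 members (3.63% of all features had such a p), and DESeq2 called 12 members (0.184% of all features). The 5 members with the smallest p are given as values. NONMMUT021833.2, at the 9630013A20Rik start printed above, had 106, 48.1 and 53.8 CPM in HBO, 7.96, 10 and 2.95 CPM in injury and 12.9, 27.4 and 25.1 CPM in control (HBO against injury, log2 change 3.30, SE 0.50, adjusted p = 0.341). NONMMUT012611.2 at the 2610035D17Rik start had 0.388, 0.418 and 0.404 CPM in HBO, 4.93, 21.6 and 23.3 CPM in injury and 0.379, 0.397 and 2.18 CPM in control (-5.20, SE 0.86, adjusted p = 0.368). The same transcript was called higher in injury against control (log2 change 3.98, adjusted p = 0.0271, edgeR). NONMMUT041583.2 at Ppp4r1l-ps had 1.94, 3.35 and 1.21 CPM in HBO, 21.6, 18.5 and 38.4 CPM in injury and 3.03, 6.35 and 14.2 CPM in control (-3.57, SE 0.61, adjusted p = 0.393). The other two, NONMMUT037654.2 and NONMMUT105487.1, were at 0 in injury and present in HBO, as given above. HBO and injury libraries lay apart in all 5, which were chosen for their small p.

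At each of these places the sum over overlapping transcripts moved little in HBO against injury. The summed log2 change was -0.34 at the 9630013A20Rik start, -0.43 at 2610035D17Rik, -0.13 at Ppp4r1l-ps, 0.15 at Scn9a and 0.13 at the place of NONMMUT105487.1, each with an adjusted p of 1 (edgeR).

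At the place of the 9630013A20Rik start, inside the protocadherin gene Pcdh17, all 9 listed transcripts were members, with lengths between 713 and 2386 bases. Together they had 185, 171 and 207 CPM in HBO, 235.1, 221 and 262 CPM in injury and 48.1, 140 and 90.9 CPM in control. The injury sums were the highest and the control sums the lowest, without overlap between groups, and the summed log2 change in injury against control was 1.31 (adjusted p = 0.0277, edgeR). Which transcript held the counts differed from library to library. NONMMUT021836.2 had 0, 57.3 and 68.7 CPM in HBO, 82.3, 84.0 and 109 CPM in injury and 17.8, 0 and 40.0 CPM in control. NONMMUT021835.2 had 83.0 CPM in injury replicate 3 and between 0 and 8.15 CPM in the other 8 libraries. NONMMUT021832.2 had 52.7, 47.4 and 0 CPM in injury, against 1.89, 34.9 and 0 CPM in control. Only NONMMUT021830.2, a transcript of 771 bases on chromosome 14, 84451476 to 84476390, was called in injury against control, with 22.4, 26.6 and 14 CPM in injury, against 3.03, 6.35 and 6.91 CPM in control (log2 change 1.94, SE 0.36, adjusted p = 0.0271, edgeR).

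**Figure D5:**
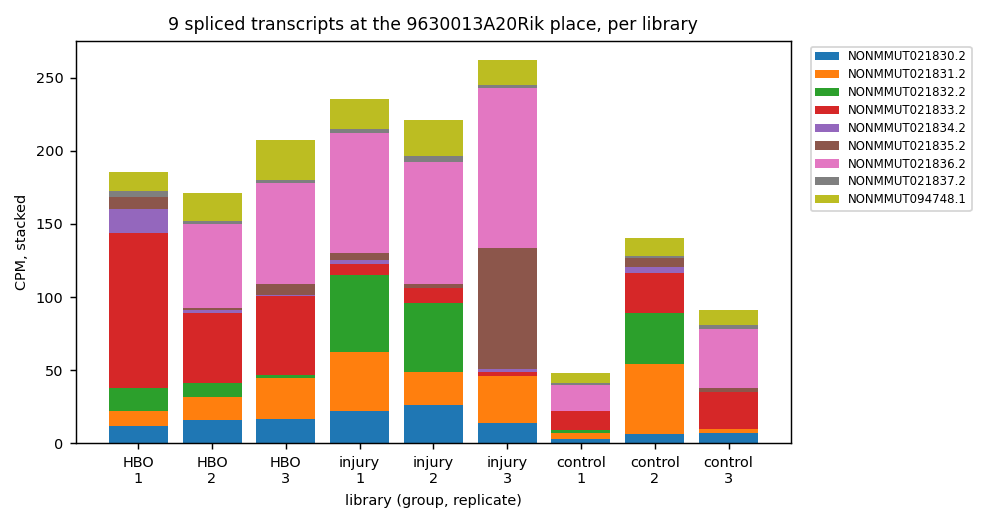
Stacked CPM of the 9 spliced transcripts at the 9630013A20Rik place in each of the 9 libraries, HBO at the left, injury in the middle and control at the right, with 1 colour per transcript. The sums run between 171 and 207 CPM in HBO, 221 and 262 CPM in injury and 48.1 and 140 CPM in control, while the transcript with the most counts changes between libraries.

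The same was seen at other places with several members. Inside an intron of Copg2, a coatomer subunit gene, NONMMUT056128.2 had 2520, 0 and 2540 CPM in HBO, 1430, 2160 and 558 CPM in injury and 3730, 1890 and 1670 CPM in control, while NONMMUT056130.2 at the same place was at 0 in 6 libraries and at 456, 574 and 911 CPM in the third replicate of HBO, injury and control. Their place, with 5 listed transcripts, had 2577, 1278 and 3033 CPM in HBO, 1468, 2202 and 1170 CPM in injury and 3770, 1928 and 2628 CPM in control. NONMMUT016768.2 and NONMMUT016769.2 share one span on chromosome 13, 28398343 to 28420408, and differ in length by a few bases, 21887 against 21891. The first had 375, 0 and 56.0 CPM in control and the second 0, 0 and 75.2 CPM.

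Over the members with a mean of 20 or more counts, such zeros were counted for overlapping and for sole transcripts. A library at 0 beside a library of the same group with 20 or more counts occurred for 10.8% of 1173 overlapping members in HBO, 8.87% in injury and 8.1% in control. Among the 734 that were the only listed transcript at their place the shares were 1.36%, 1.77% and 1.23%. The median coefficient of variation within a group was 29.6%, 25.3% and 26.1% for overlapping members and 20.8%, 16.8% and 17.3% for sole ones, in HBO, injury and control. How the authors' counting divides reads between overlapping transcripts is not given in the sources used here, and its part in these values was not tested.

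In HBO against control, 116 members were called (3.19% of 3637, against 4.29% of all features), 83 higher (2.9% of all features) and 33 lower. By DESeq2 330 members were called (12.4% of all features), with no filter on low counts 17 (0.304%), with only the libraries of the 2 groups 23 (1.37%) and with overlapping transcripts summed 541 (8.72%). Summed so, 223 were higher and 318 lower, again with members at one place sharing its result and the 8.72% taken over places. With the library totals behind FPKM, 46 of 3615 tested members were higher and 35 lower. Of 26494 features, 848 were then called, 450 of them higher. HBO and injury share the control libraries, so their comparisons with control are not independent. Of the called members, 78 were called in both comparisons, all in the same direction, which is 47.6% of the 164 and 67.2% of the 116. In HBO against control, 2 members (20 of 28287 features) were called without control replicate 1, 4 (20 of 28227) without control replicate 2 and 40 (272 of 28383) without control replicate 3. Without HBO replicate 1 there were 70 (667 of 28628), without HBO replicate 2 there were 7 (66 of 28632) and without HBO replicate 3 there were 23 (281 of 28481). Without injury replicate 1 there were 104 (1037 of 28608), without injury replicate 2 there were 12 (156 of 28563) and without injury replicate 3 there were 27 (350 of 28518). HBO replicate 3 differed most from its own group, with a chi-square per degree of freedom of 21.8 and 23.0 against the other two HBO libraries, compared with 8.07 to 12.9 in the 7 other pairs within groups.

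By the size of change, the largest increases in HBO against control included NONMMUT068776.2, NONMMUT069433.2, NONMMUT105272.1 and NONMMUT005529.2, all described above. NONMMUT078968.1, on chromosome 1, 151240071 to 151250937, joined them with 5.05, 13.8 and 5.66 CPM in HBO, 9.10, 0.771 and 5.17 CPM in injury and none in control, at least 21.5-fold higher in HBO than in control (adjusted p = 0.0451, edgeR). The 5 listed transcripts at its place had a summed log2 change of 1.49 in HBO (adjusted p = 0.00901).

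The largest decreases in HBO against control included NONMMUT073505.2 in the span of Ftx, a noncoding RNA beside Xist on the X chromosome, 103591775 to 103615181. It had no count in HBO, 3.79, 3.08 and 5.54 CPM in injury and 4.16, 10.3 and 4.36 CPM in control, at least 15.6-fold lower in HBO than in control (adjusted p = 0.028, edgeR). The 19 listed transcripts there had 261, 272 and 305 CPM in HBO, against 360, 438 and 414 CPM in control (summed log2 change -0.58, adjusted p = 0.0362). NONMMUT126894.1, a sole transcript near Ube3a on chromosome 7, 59187507 to 59193898, had 0, 1.25 and 0.809 CPM in HBO, 0, 34.7 and 38.8 CPM in injury and 65.1, 63.9 and 44.7 CPM in control. It fell in HBO (log2 change -6.33, SE 1.37, adjusted p = 0.0411), and injury replicate 1 stood with the HBO libraries rather than with its own group. NONMMUT004417.2 and NONMMUT103348.1 also fell, with log2 changes of -2.77 (adjusted p = 0.0487) and -3.52 (adjusted p = 0.0485, edgeR).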

How the data were processed

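RNA from 9 spinal cord libraries was measured per noncoding transcript. The tables the authors deposited give, per the file headers, a read count and an FPKM value for each transcript, with its span and length. HISAT2 and GRCm38 are named in the submitters' processing notes. For the counting program, its use of strand and its treatment of reads shared by overlapping transcripts, nothing is stated: not given in the sources used here. No sample column was left unused (0).

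Counts were summed per Ensembl gene name where one was listed, filtered with filterByExpr (min.count 10) and fitted over all 9 libraries with edgeR 4.0.16 in R 4.3.3 by its quasi-likelihood test, with TMM scaling and Benjamini-Hochberg adjustment over 26602 features. A call is an adjusted p under 0.05. CPM is scaled to the listed noncoding counts. FPKM served for levels only. A group at 0 was set against a floor of 3 counts over the group, which covers counting error only. The fit was tested on simulated data. DESeq2 1.42.0 was an alternative, and permutation tests used scipy 1.17.1 in Python 3.11.15.

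Spans were compared with GENCODE M21 and RefSeq on GRCm38, without strand. Named by rule were the 10 largest called changes each way in injury against control and the 5 each way in HBO against control (groups not overlapping, mean of 1 CPM or more), the 5 smallest p in HBO against injury, up to 2 members per list, and the extremes of level, span and length. Others are said to be picked after their values were seen. Members and lists were chosen with earlier results of these data known.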

Additional observations from a re-analysis of the deposited data

How the results depend on the processing

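The count of members called moved by over 1.5 times under several alternatives. For injury against control (164) it was 32 with no filter on low counts, 387 by DESeq2 and 724 with overlapping listed transcripts summed, and between 4 and 183 when 1 library was left out. For HBO against control (116) it was 17 with no filter, 330 by DESeq2, 541 with overlapping transcripts summed, 23 with only the libraries of the 2 groups, and between 2 and 104 with 1 library left out. For HBO against injury (0) it was 12 by DESeq2 and between 0 and 7 with 1 library left out. The 7, of 4013 members tested, were called without injury replicate 3, where 17 of 28518 features were called. With transcripts summed, members at one place share its result, so the 724 and 541 count some places more than once. Among members that overlap no other listed transcript, an alternative chosen after seeing the data, 74 and 55 were called in injury and in HBO against control. These were 6.24% and 4.64% of those tested, against 6.06% and 4.29% of all features. Same-numbered libraries of different groups correlated between -0.054 and 0.052 in their deviations from group means, and others between -0.096 and 0.133. These values are over all tested features and do not speak of single transcripts. NONMMUT056130.2, given above, was counted only in the third replicate of each group. Whether same-numbered libraries were handled together was not tested. With the replicate block 1 member was called in injury and 1 in HBO against control (7 and 9 of 26602 features). With the library total behind FPKM, the share of counts in members differed by -0.223 percentage points in injury against control by 0.0569 in HBO against injury and by -0.166 in HBO against control (exact permutation p = 0.1, 0.5 and 0.1). By the sum at the place, NONMMUT021833.2 turned from -1.64 to 1.31 and NONMMUT029861.2 from -3.01 to 0.073 on the log2 scale in injury against control. The cause of these shifts was not tested. Of 53 named results past the threshold, 2 passed under every alternative run, both of NONMMUT068776.2 against control. The filter on low counts left 1191 members untested, with a median mean count of 6.22.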

Other observations

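Some members differed widely between libraries of one group. NONMMUT096375.1, an intergenic transcript near the synaptotagmin gene Syt10 on chromosome 15, 89767563 to 89768777, had 519, 377 and 35.2 CPM in HBO, 0.379, 49.7 and 397 CPM in injury and 620, 407 and 590 CPM in control. The control libraries stood together, whereas HBO replicate 3 and injury replicates 1 and 2 were low, and no comparison passed the test (injury against control, log2 change -1.85, SE 1.44, adjusted p = 0.438, edgeR).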
